A study of Mus musculus with 25 samples.

Results

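Cd28, Ctla4 and Icos lie side by side on mouse chromosome 1 and encode a family of related receptors on T cells. Open chromatin at the 3 genes was examined in CD8+ T cells specific for an antigen shared by graft and fetus. In an ATAC-seq count table of 13527 peaks, 12 peaks had a midpoint in the body of Cd28, Ctla4 or Icos, or lay closer to the transcription start of 1 of them than to that of any other protein-coding gene (GENCODE vM39 on GRCm39). Of these, 5 belonged to Cd28, 3 to Ctla4 and 4 to Icos. Assignment to a gene by distance does not show that a peak acts on it.

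CD28 delivers the co-stimulatory signal that a naive T cell needs beside its antigen receptor, and it binds CD80 and CD86 on antigen-presenting cells. CTLA4 binds the same ligands more tightly, is induced after activation and restrains the response. ICOS is also induced by activation, binds ICOS ligand, and signals mainly through PI3-kinase. CD28 is present on resting T cells, while CTLA4 is best known from activated, regulatory and chronically stimulated T cells.

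The cells came from spleen and lymph nodes of C57BL/6 females, and were sorted as CD8+ T cells that bind tetramers of an OVA peptide with Kb (fetus/graft-specific T cells, T_FGS). The 25 libraries formed 7 groups. Naive mice (3 libraries) had met neither graft nor fetus, and Sensitized mice (4 libraries) had rejected a skin graft from the 2W-OVA.BALB/c strain. N+P mice were naive and S+P mice sensitized before they were mated with males of that strain, and their cells were taken after birth. Within the pregnant animals, C1 (N+P, 3 libraries) and C4 (S+P, 4 libraries) were PD1-, C5 was PD1+CD73+ (3 libraries of N+P, 4 of S+P), and C7 was PD1+CD73- (S+P, 4 libraries). The labels give no age. They name no PD1 or CD73 gate for Naive and Sensitized, so where a subset of pregnant mice is compared with Naive or Sensitized, pregnancy and the gate cannot be told apart. The labels number the replicates without naming the animals, so that p-values measure the spread between these libraries.

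The peaks covered a span of 390810 bp, and all 3 genes are transcribed from the plus strand. Peaks are named here by the gene and the distance of their midpoint from the start of the canonical transcript. The Cd28 promoter peak (chr1:60784745-60786552) covered exon 1. The +9 kb (chr1:60794320-60795624) and +13 kb (chr1:60796930-60799718) peaks lay in intron 1. The +30 kb peak (chr1:60812923-60817184) lay just past the end of the Cd28 transcript, and the +35 kb peak (chr1:60820630-60821373) had its midpoint 8483 bp past that end, within the lncRNA gene 2310016D23Rik. The +30 kb peak was 4262 bp long, and only 0.414% of all peaks were as long or longer. For Ctla4, the promoter peak (chr1:60947693-60948673) covered exon 1, the +4 kb peak (chr1:60950459-60953126) covered exons 2 and 3 of 4, and the +8 kb peak (chr1:60955049-60956319) began past the transcript's end. An antisense lncRNA gene, Gm69500, spans all 3 Ctla4 peaks. For Icos, the promoter peak (chr1:61016554-61017623) covered exon 1, the +13 kb peak (chr1:61029275-61030246) lay in intron 1, and the +72 kb and +158 kb (chr1:61174679-61175554) peaks lay 50107 bp and 135637 bp past the gene's end. No other peak lay in the gaps of 113640 bp between Cd28 and Ctla4 and 62094 bp between Ctla4 and Icos. 

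The central 300 bases of 2 peaks are shown because the results below turn on them. They were read from the plus strand of GRCm39 at chr1:60951643-60951942 and chr1:60820852-60821151. Capitals mark a match, on either strand, to 1 of 10 letter strings of transcription factor families.
Ctla4 +4 kb: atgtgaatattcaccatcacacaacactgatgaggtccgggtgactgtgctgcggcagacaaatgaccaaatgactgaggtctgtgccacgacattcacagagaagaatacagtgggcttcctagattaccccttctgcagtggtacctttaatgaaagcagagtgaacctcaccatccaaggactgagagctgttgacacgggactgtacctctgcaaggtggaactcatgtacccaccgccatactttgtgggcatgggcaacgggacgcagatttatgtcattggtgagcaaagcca
Cd28 +35 kb: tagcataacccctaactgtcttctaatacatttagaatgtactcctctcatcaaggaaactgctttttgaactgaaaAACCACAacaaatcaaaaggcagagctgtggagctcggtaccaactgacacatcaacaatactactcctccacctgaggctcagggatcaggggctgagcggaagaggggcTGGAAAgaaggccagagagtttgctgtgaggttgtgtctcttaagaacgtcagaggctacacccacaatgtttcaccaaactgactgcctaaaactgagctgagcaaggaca
The strings were AP-1 TGANTCA, NFAT TGGAAA, RUNX TGTGGTT, TCF/LEF CTTTGA, T-box GGTGTGA, ETS CCGGAA, STAT TTCNNNGAA, NR4A AAAGGTCA, NF-kB GGGNNNTCC and KLF GGGTGTGG. The Cd28 +35 kb window held a RUNX string (10.8% of all peaks, 20.1% of those outside promoters) and an NFAT string (18.1% and 25.4%). The Ctla4 +4 kb window, whose midpoint lies in coding sequence of exon 2, held none of the 10. The GC content of the 11 member windows searched ran from 37.0% (Cd28 +9 kb) to 50% (Ctla4 +4 kb), against a median of 57.3% over all peaks and 48.7% over those outside promoters. A match is a run of letters and was not tested as a binding site.

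Reads counted in peaks came to between 2430890 and 25419715 a library (median 8197552). Across all peaks, 10 of the 25 libraries correlated best with another group than their own. Among them were Sensitized replicates 3 and 4 and S+P C4 replicate 1, which each lay nearest to N+P C5, so member fold changes discussed below that rest on them are also given without them where the call changed or the value moved by over 1.5 times. Sensitized replicate 1 lay nearest to S+P C4 (r = 0.931, against 0.868 with its own group), and the fits without Sensitized replicates 3 and 4 keep it. Promoter peaks were found at 4 of 4 CD8 T cell markers (Cd3e, Cd3d, Cd8a, Cd8b1), with a summed normalized count of 2089 to 3101. Among the 4 markers of CD4 and regulatory T cells, Cd4 and Zbtb7b had none, while Foxp3 and Ikzf2 each had 1. The table held no promoter peak for any of the 4 B cell, 4 myeloid, 2 NK and 2 erythroid markers searched.

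The call of a changed peak required more than 0.9 in either direction on the log2 scale together with an adjusted p below 0.1 (DESeq2's Wald test, adjusted over the peaks its filter kept, which were all 13527 in 11 of the 13 comparisons). Over 13 comparisons, 12 calls fell on 3 peaks: Ctla4 +4 kb, Icos +72 kb and Cd28 +35 kb. The other 9 peaks, among them the promoters of all 3 genes, were never called. In Sensitized vs Naive, 1 of 12 member peaks was called, beside 8.62% of all peaks. The count was 1 in S+P C5 vs Sensitized (6.74% of all peaks), 2 in S+P C7 vs Sensitized (11.9%), 2 in S+P C4 vs N+P C1 (12.6%) and 2 for S+P C5 vs N+P C5 (17.2%). It was 1 each in S+P C5 vs S+P C4 (5.12%), S+P C7 vs S+P C4 (7.73%) and S+P C7 vs S+P C5 (2.38%), and 1 in the interaction (5.97%), which is S+P C5 vs Sensitized minus N+P C5 vs Naive. These shares are near the background, so nothing is particular to the locus in how often its peaks were called. What the peaks do show is which elements changed and in which cells. The table merged 1 list of reproducible peaks per group. Ctla4 +4 kb and Icos +72 kb were in the lists of S+P C5 and S+P C7 only. They were thus in part selected for being open in these groups.

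Without the fold threshold, 1 of 12 member peaks passed in Sensitized vs Naive (20.5% of all peaks), 1 in S+P C4 vs Sensitized (6.54%), 2 in S+P C5 vs Sensitized (32.9%) and 5 in S+P C7 vs Sensitized (52.9%). The number was 7 for S+P C4 vs N+P C1 (53%), 7 for S+P C5 vs N+P C5 (63.8%), 3 for S+P C5 vs S+P C4 (13.3%), 3 for S+P C7 vs S+P C4 (22.2%), 4 with S+P C7 vs S+P C5 (8.93%) and 2 for the interaction (31.2%). The 4 peaks in S+P C7 vs S+P C5, Cd28 +30 kb, Cd28 +35 kb, Icos +13 kb and Icos +158 kb, were all lower in S+P C7. That was the common direction, since 383 of the 1208 peaks of the table that passed in this comparison were higher in S+P C7. None passed in N+P C5 vs N+P C1 (0%). In N+P C1 vs Naive and N+P C5 vs Naive the tool's filter on low counts left an adjusted p for 4873 and 3824 peaks, of which 11.9% and 7.87% passed, and for 6 and 4 of the 12 member peaks, of which none passed.

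Subsets of N+P or of S+P mice that carry the same number in the count table may come from the same mouse, although no source names the animals. A comparison with that number as a block was added after the data had been seen. With it, 8 member peaks passed at any fold in S+P C7 vs S+P C5 (26.3% of all peaks), 6 in S+P C5 vs S+P C4 (17%), 4 in S+P C7 vs S+P C4 (25.8%) and 0 in N+P C5 vs N+P C1 (0.0222%). In S+P C7 vs S+P C4 the pairing is the least sure, since the deviations of its pairs from their group means correlated with r as low as 0.0639. The 8 peaks were all lower in S+P C7. They were the 4 above, with Cd28 +9 kb (-0.29, adjusted p = 0.0164), Cd28 +13 kb (-0.32, adjusted p = 4.09e-04), the Ctla4 promoter (-0.53, adjusted p = 9.67e-05) and Ctla4 +8 kb (-0.33, adjusted p = 0.00984, DESeq2). Each of the 8 was lower in S+P C7 in 4 of 4 same-numbered pairs, except Cd28 +9 kb in 3 of 4. These pair counts were read on peaks picked by the same fit and are a description. Of the 443 peaks of the table called with the block in S+P C7 vs S+P C5, 56 were higher in S+P C7, so the direction is the common one. In S+P C5 vs S+P C4 the block added Cd28 +35 kb (0.65), the Ctla4 promoter (0.76) and Icos +72 kb (0.57), all higher in S+P C5. In S+P C7 vs S+P C4 it added Icos +72 kb (0.45). The calls with the fold threshold stayed the same in these 4 comparisons.

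When Sensitized replicates 3 and 4 were left out, the peaks that passed at any fold numbered 6 in Sensitized vs Naive (33.4% of all peaks), 0 in S+P C4 vs Sensitized (6.43%), 3 in S+P C5 vs Sensitized (11.2%), 2 in S+P C7 vs Sensitized (26.1%) and 1 for the interaction (6.5%). In Sensitized vs Naive, Icos +72 kb was higher, and Cd28 +9 kb (-0.50), Cd28 +30 kb (-0.74), Cd28 +35 kb (-0.98), the Ctla4 promoter (-0.85) and the Icos promoter (-0.61) were lower. In S+P C7 vs Sensitized only Ctla4 +4 kb (1.26) and Icos +158 kb (-0.63) still passed.

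The libraries of the groups compared did not overlap at 2 member peaks for Sensitized vs Naive (22.7% of all peaks), 2 for S+P C5 vs Sensitized (14.7%), 1 for S+P C7 vs Sensitized (25.5%) and 0 for S+P C4 vs Sensitized (3.96%). They did not overlap at 2 for S+P C4 vs N+P C1 (42.2%), 6 for S+P C5 vs N+P C5 (62.9%), 3 for S+P C5 vs S+P C4 (11.7%), 0 for S+P C7 vs S+P C4 (16%) and 5 with S+P C7 vs S+P C5 (11.5%). The 6 peaks that set S+P C5 apart from N+P C5 were Ctla4 +4 kb, Icos +13 kb and Icos +72 kb, which were higher, and Cd28 +9 kb, Cd28 +13 kb and the Icos promoter, which were lower. Among the naive-mouse comparisons it was 1 for N+P C1 vs Naive (27%), 2 for N+P C5 vs Naive (26.2%) and 2 for N+P C5 vs N+P C1 (11.1%).

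No member peak was called in N+P C5 vs N+P C1 (0% of all peaks), or in S+P C4 vs Sensitized (0.858%). None was called among the 6 with an adjusted p for N+P C1 against Naive (0.0205% of the 4873 peaks tested) or the 4 for N+P C5 against Naive (0.0262% of 3824). With the filter off, the lowest adjusted p among the 12 peaks was 0.236 for N+P C1 and 0.432 for N+P C5, each against Naive (DESeq2), and edgeR's quasi-likelihood test also called 0 in all 4. At an unadjusted p under 0.05, DESeq2 gave 1 member peak for N+P C1 vs Naive (19% of all peaks), 0 for N+P C5 vs Naive (17.5%), 0 for N+P C5 vs N+P C1 (2.28%) and 4 for S+P C4 vs Sensitized (18.7%). In the 3 comparisons among naive mice the member counts are those of the background, and nothing is read from them about these genes.

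**Figure D1:**
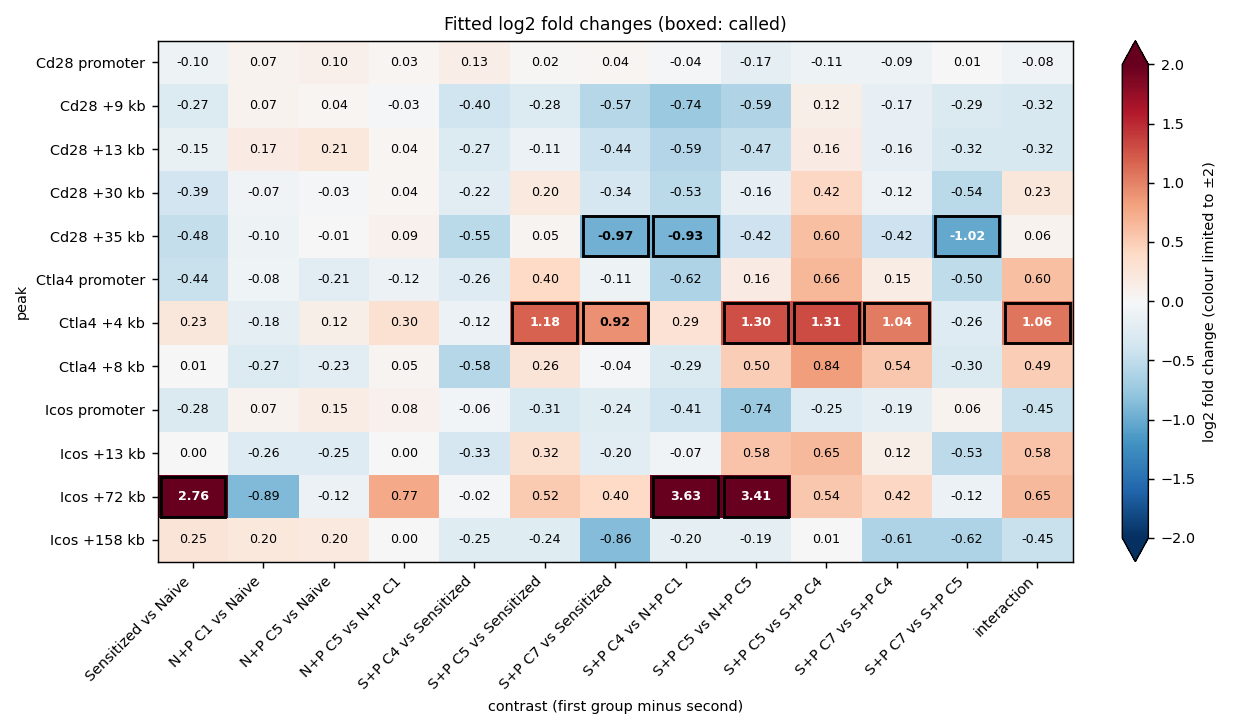
Fitted log2 fold changes of the 12 peaks (rows) in the 13 comparisons (columns, first group against second), with called values boxed. The boxes fall on the rows of Ctla4 +4 kb, Icos +72 kb and Cd28 +35 kb, from -1.02 to 3.63, and the promoter rows hold none.

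The Ctla4 +4 kb peak was wider open in both PD1+ subsets of sensitized and pregnant mice. It entered the merged peaks only through the lists of these subsets. It was thus in part selected for being open there, and its higher counts in them are a description. Its normalized counts were 1049, 1371, 995 and 1089.6 in S+P C5, and 1098, 1248, 792 and 619 in S+P C7. They were 352, 434, 569 and 627 in Sensitized, and 623, 566, 304 and 344 in the PD1- subset S+P C4. All 4 S+P C5 libraries lay above every Sensitized and S+P C4 library, while S+P C7 replicate 4 lay within their range. Naive libraries held 428, 436 and 401, N+P C1 libraries 319.7, 381 and 420.1, and N+P C5 libraries 428, 454 and 494. PD1+CD73+ cells of N+P mice therefore overlapped with Naive cells in this count, and lay below all libraries of the same gate in S+P mice.

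The log2 fold change of Ctla4 +4 kb was 1.18 ± 0.22 (SE) in S+P C5 vs Sensitized (adjusted p = 3.93e-06, DESeq2) and 0.92 ± 0.22 in S+P C7 vs Sensitized (adjusted p = 2.09e-04). Against the PD1- cells of S+P mice it was 1.31 ± 0.22 for C5 (adjusted p = 4.74e-07) and 1.04 ± 0.22 for C7 (adjusted p = 9.15e-05). S+P C5 exceeded N+P C5 by 1.30 ± 0.24 (adjusted p = 6.60e-07). C7 and C5 of S+P mice did not differ beyond their spread, at -0.26 with a 95% interval from -0.69 to 0.17 (adjusted p = 0.575). In Sensitized vs Naive the value was 0.23 ± 0.24 (adjusted p = 0.585), so the graft alone gave no call here, and it was -0.11 without Sensitized replicates 3 and 4. In this fit the difference of C5 cells from non-pregnant mice varied with history: S+P C5 vs Sensitized exceeded N+P C5 vs Naive by 1.06 ± 0.34 (adjusted p = 0.0199, DESeq2 interaction). The peak was admitted by the lists of S+P C5 and S+P C7 alone, so the test is not independent of its selection.

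Without Sensitized replicates 3 and 4, the fold change was 1.52 in S+P C5 vs Sensitized and 1.26 in S+P C7 vs Sensitized, and without S+P C4 replicate 1, that in S+P C5 vs S+P C4 was 1.48. The C7 values were less secure: S+P C7 vs Sensitized fell under the fold threshold without Sensitized replicate 1 (0.79) or 2 (0.86) or S+P C7 replicate 1 (0.84) or 2 (0.75), and S+P C7 vs S+P C4 without S+P C7 replicate 2 (0.88) or S+P C4 replicate 3 (0.89). The summed promoter count of the CD4 and regulatory T cell markers (2 of 4 with a peak) ran from 1108 to 1347 in S+P C5, 1008 to 1368 in S+P C7, 1080 to 1535 in S+P C4, 966 to 1492 in Sensitized, 1573 to 1694 in Naive, 1817 to 2069 in N+P C1 and 1823 to 1919 in N+P C5. The intronic peak of Ikzf2, which is 1 of these markers, varied with Ctla4 +4 kb over the 25 libraries (r = 0.946). The part of such cells in the result was not tested. In sorted bulk samples, a peak open in more cells and a peak more open in each cell cannot be told apart.

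**Figure D2:**
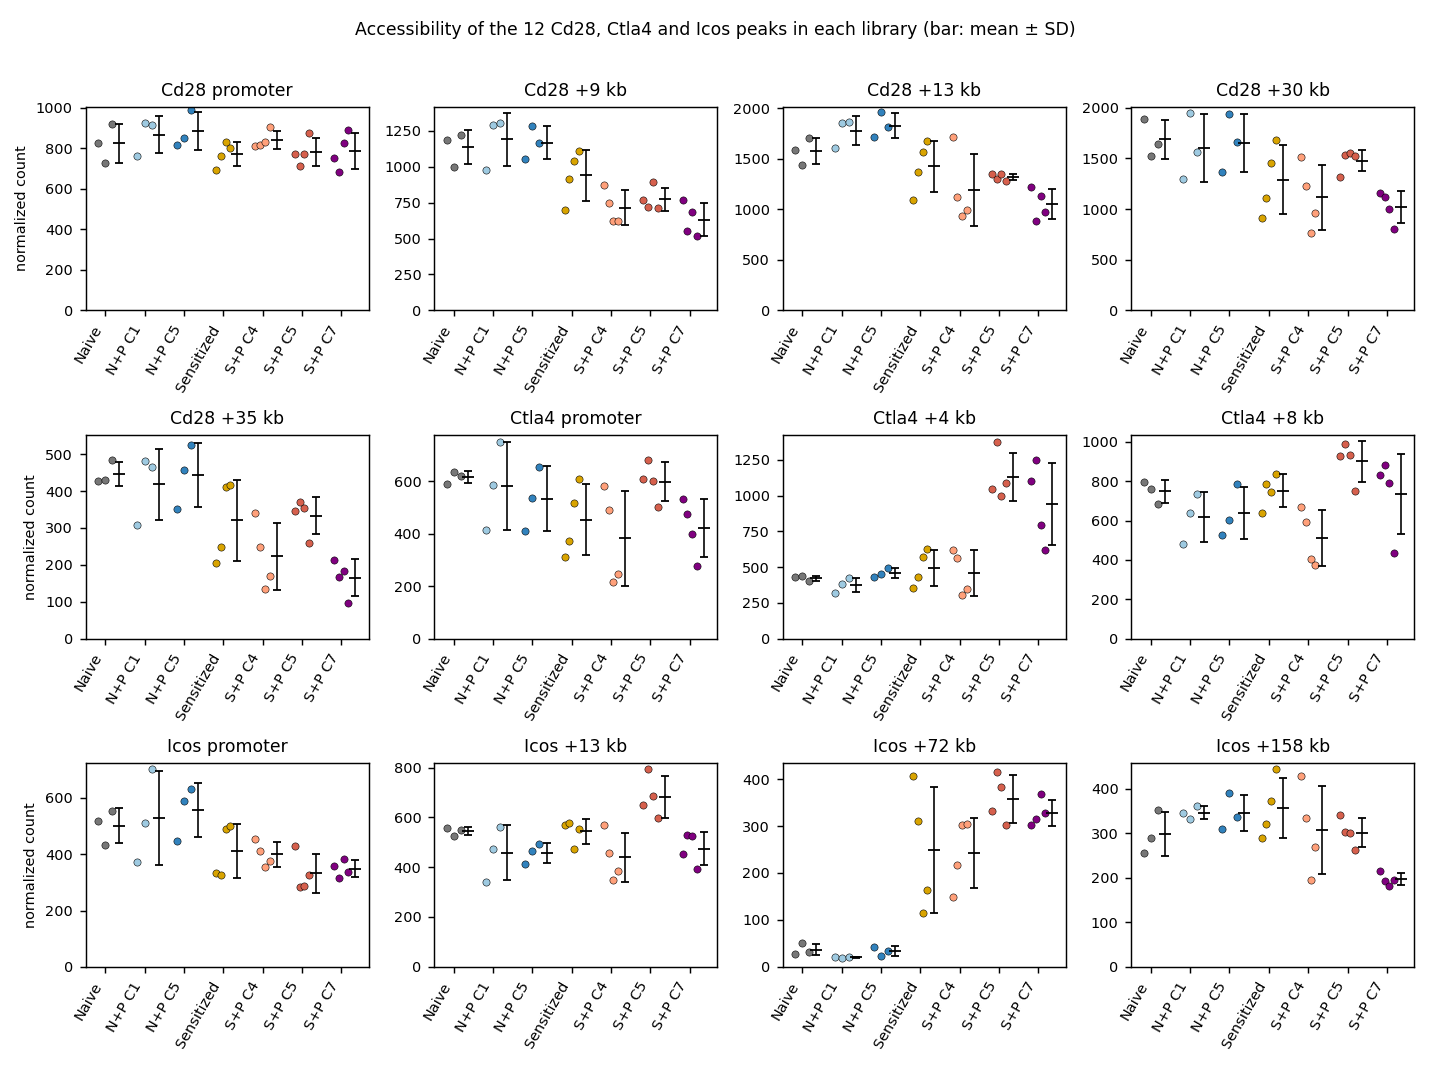
Normalized counts (raw counts divided by DESeq2 size factors) of the 12 peaks by group, a circle per library and a bar for the mean ± SD. Ctla4 +4 kb stands high in S+P C5 and S+P C7 only, Icos +72 kb in all 4 groups of sensitized mice, and the Cd28 promoter is near level across the 7 groups.

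The Ctla4 promoter was not called in the fit over all libraries. Its normalized counts were 591, 635 and 622 in Naive, 415, 585 and 749.8 in N+P C1, and 412, 536 and 657 in N+P C5. They were 311, 373, 518 and 609.6 in Sensitized, 582, 489, 215 and 246 in S+P C4, 608, 681, 603 and 501 for S+P C5, and 534, 475, 399 and 279 in S+P C7. The groups overlapped widely, and the fold change was 0.40 ± 0.27 in S+P C5 vs Sensitized (adjusted p = 0.267) and -0.11 ± 0.27 in S+P C7 vs Sensitized (adjusted p = 0.769, DESeq2). These values were 0.81 (adjusted p = 0.0853) and 0.30 (adjusted p = 0.534) without Sensitized replicates 3 and 4, and Sensitized vs Naive went from -0.44 to -0.85. In S+P C5 vs S+P C4 the promoter value was 0.66 ± 0.27 (adjusted p = 0.114), in the direction of the +4 kb peak, and without S+P C4 replicate 1 it was called, at 0.92. With the number as a block it was 0.76 ± 0.19 in that comparison (adjusted p = 0.00127), higher in 4 of 4 pairs. In S+P C7 vs S+P C5 it was -0.50 ± 0.27 (adjusted p = 0.308) and with the block -0.53 ± 0.12 (adjusted p = 9.67e-05), lower in 4 of 4 pairs.

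A ratio of raw counts of 2 peaks in the same library needs no scaling between libraries, and this comparison was added after the counts had been seen. The count of Ctla4 +4 kb over that of the Ctla4 promoter was 0.645 to 0.725 in Naive, 0.560 to 0.771 in N+P C1 and 0.753 to 1.04 in N+P C5. It was 1.03 to 1.16 in Sensitized, 1.07 to 1.41 in S+P C4, 1.65 to 2.18 for S+P C5 and 1.98 to 2.63 in S+P C7. Both PD1+ subsets of S+P mice lay above all Sensitized and all S+P C4 libraries. Sensitized libraries, replicates 3 and 4 included, lay above all Naive libraries on this ratio, although the scaled counts of the 2 groups overlapped. All N+P C5 libraries also lay above all Naive libraries on it.

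The mean log2 ratio was 0.77 higher in S+P C5 than in Sensitized and 1.00 higher in S+P C7 than in Sensitized, with an exact permutation p of 0.0286 for each (two-sided, 4 against 4 libraries). That is the smallest p this design allows, and with 4 against 3 libraries it is 0.0571. Over the 36 exact permutation tests of ratios the lowest adjusted p was 0.147. With these numbers of libraries no adjusted p under 0.05 could be reached, and the peaks had been chosen by their calls, so the ratios are a description.

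**Figure D3:**
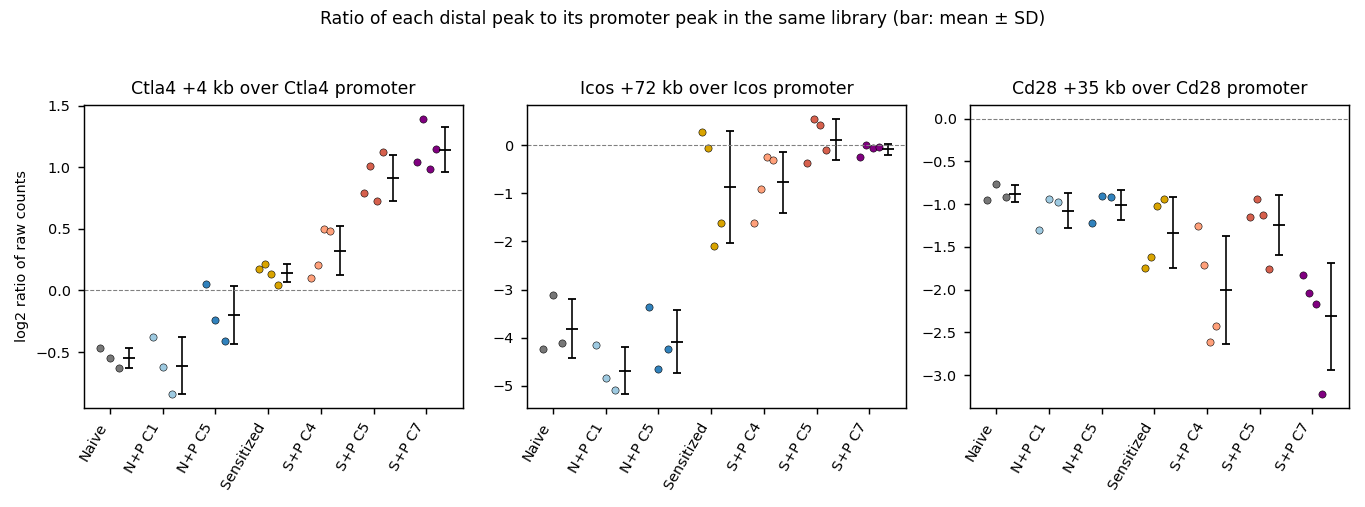
Log2 ratio of the raw count of each called peak to that of its gene's promoter peak, by group, a circle per library and a bar for the mean ± SD. The Ctla4 ratio is below 0 in all Naive and N+P C1 libraries, and all S+P C5 and S+P C7 libraries lie above those of the other 5 groups.

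The Icos +72 kb peak separated sensitized from unsensitized mice. It entered the merged peaks only through the lists of S+P C5 and S+P C7. It was thus in part selected for being open in sensitized mice, and the separation is a description. Its normalized counts were 27.6, 50.2 and 32.2 in Naive, 21.0, 17.9 and 20.7 in N+P C1, and 43.3, 23.3 and 33.7 in N+P C5. They were 407, 311, 114 and 163 in Sensitized, and 149.7, 217, 301 and 304 in S+P C4. S+P C5 libraries held 331, 415, 384 and 302, and S+P C7 libraries 303, 315, 368 and 328. The highest of the 9 Naive and N+P libraries (50.2) lay below the lowest of the 16 others (114). The lower level rests on 11 to 51 raw reads per library, so folds against it carry the counting error of few reads.

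The log2 fold change was 2.76 ± 0.35 in Sensitized vs Naive (adjusted p = 6.33e-13, DESeq2), which is 6.76-fold. It was 3.63 ± 0.39 in S+P C4 vs N+P C1 (adjusted p = 9.25e-18) and 3.41 ± 0.36 for S+P C5 vs N+P C5 (adjusted p = 8.04e-19). With loess offsets, a scaling that varies with the peak's count, these values were 1.81, 2.43 and 1.89, still called. Without Sensitized replicates 3 and 4, Sensitized vs Naive gave 3.29. The S+P C5 vs N+P C5 value is not independent of the selection of this peak, which only the lists of S+P C5 and S+P C7 held.

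No subset of S+P mice was called against Sensitized at Icos +72 kb. The value was -0.02 ± 0.31 in S+P C4 vs Sensitized (adjusted p = 0.981), 0.52 ± 0.30 in S+P C5 vs Sensitized (adjusted p = 0.187) and 0.40 ± 0.30 in S+P C7 vs Sensitized (adjusted p = 0.277, DESeq2). The 95% interval of the S+P C5 value, from -0.07 to 1.12, still holds a change of more than 2-fold. Without Sensitized replicates 3 and 4, the lowest of that group at this peak, the value of S+P C4 was -0.54, that of S+P C5 -0.01 and that of S+P C7 -0.13, none called, and without Sensitized replicate 1 they were 0.33, 0.87 and 0.75, none called. With loess offsets those of S+P C5 and S+P C7 were -0.03 and -0.18. The direction of these differences therefore depends on those libraries and on the scaling. Its ratio to the Icos promoter was 0.0295 to 0.116 in the 9 Naive and N+P libraries and 0.233 to 1.46 in the others.

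The Icos promoter went the other way, without a call. Its normalized counts were 518, 433 and 555 in Naive, 372, 511 and 703 in N+P C1, and 448, 589 and 631 in N+P C5. They were 335, 325, 489 and 500.1 in Sensitized, 456, 410.2, 356 and 375 in S+P C4, 430.1, 285, 288 and 325 for S+P C5, and 358, 315, 384 and 338 in S+P C7. All S+P C5 libraries lay below all N+P C5 libraries, in a comparison in which 62.9% of all peaks did not overlap. The difference of -0.74 ± 0.20 on the log2 scale (adjusted p = 0.00114, DESeq2) missed the fold threshold. Between C5 cells of sensitized and naive mothers, the +72 kb peak was thus higher and the promoter lower.

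The intronic Icos +13 kb peak was highest in S+P C5. The 4 S+P C5 libraries (596 to 796) lay above the 4 Sensitized (472 to 579) and the 3 N+P C5 libraries (413 to 493). The log2 fold change was 0.58 ± 0.16 for S+P C5 vs N+P C5 (adjusted p = 0.00124), 0.65 ± 0.15 in S+P C5 vs S+P C4 (adjusted p = 5.20e-04) and -0.53 ± 0.15 in S+P C7 vs S+P C5 (adjusted p = 0.0118, DESeq2), under the fold threshold in each. Icos +13 kb and Ctla4 +4 kb were the 2 of 12 member peaks at which every S+P C5 library exceeded every Sensitized library. Over all peaks, 14.7% did not overlap in that comparison, in either direction, so the count is near the background.

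The farthest peak, Icos +158 kb, was lowest in S+P C7, at 214, 194, 182 and 196. Sensitized libraries held 289.6, 322, 373 and 445, and the fold change of S+P C7 vs Sensitized was -0.86 ± 0.18 (adjusted p = 1.96e-05, DESeq2), short of the threshold of 0.9. It passed that threshold without Sensitized replicate 1 (-0.95), without Sensitized replicate 2 (-0.91) or without S+P C7 replicate 1 (-0.90), and was -0.63 (adjusted p = 0.0173) without Sensitized replicates 3 and 4. Its midpoint is 158030 bp from the Icos start, and its link to Icos rests on distance alone.

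Cd28 +35 kb had its lowest mean in S+P C7. Its normalized counts were 213, 167, 184 and 95.3 in S+P C7, against 347, 370.4, 355 and 259.7 in S+P C5 and 205, 248, 411 and 418 in Sensitized. S+P C4 libraries held 340.3, 249, 136 and 169. All S+P C7 libraries lay below all S+P C5 libraries, while S+P C7 overlapped with Sensitized and S+P C4. Naive libraries held 427, 429 and 485, N+P C1 libraries 308, 481 and 465, and N+P C5 libraries 351, 456 and 524. The 2 lower Sensitized libraries lay below all 9 Naive and N+P libraries, and the 2 higher ones, replicates 3 and 4, lay within the range of the 9 but below all Naive libraries.

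The log2 fold change of Cd28 +35 kb was -0.97 ± 0.28 in S+P C7 vs Sensitized (adjusted p = 0.00205), -1.02 ± 0.28 in S+P C7 vs S+P C5 (adjusted p = 0.00802), and for the PD1- cells -0.93 ± 0.30 between S+P C4 and N+P C1 (adjusted p = 0.00792, DESeq2). The PD1- cells of S+P mice were not shown to differ from S+P C7, at -0.42 ± 0.28 in S+P C7 vs S+P C4 (adjusted p = 0.328), which was -0.17 without S+P C4 replicate 1. S+P C4 vs Sensitized gave -0.55 ± 0.28 (adjusted p = 0.262, DESeq2), which was -0.05 without Sensitized replicates 3 and 4 and -0.80 without S+P C4 replicate 1. The 3 calls are less secure than those of S+P C5 at Ctla4 +4 kb and those at Icos +72 kb. Without Sensitized replicates 3 and 4 the first was -0.47 and not called, and Sensitized vs Naive, at -0.48 ± 0.29 (adjusted p = 0.294), became -0.98 and was called. The first was also lost without Sensitized replicate 3 (-0.82), without Sensitized replicate 4 (-0.81) or without S+P C7 replicate 4 (-0.77), and the second without S+P C7 replicate 4 (-0.82). The third was lost with TMM scaling (-0.90, just inside the threshold), with total counts (-0.89) and without N+P C1 replicate 2 (-0.81) or 3 (-0.84) or S+P C4 replicate 3 (-0.75) or 4 (-0.81) or with a block for the replicate number (-0.86), and was -1.18 without S+P C4 replicate 1.

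The 2 peaks in intron 1 of Cd28 were lower in S+P than in N+P cells by less than the fold threshold. Cd28 +9 kb was lower for S+P C4 vs N+P C1 (-0.74 ± 0.17, adjusted p = 7.54e-05), S+P C5 vs N+P C5 (-0.59 ± 0.16, adjusted p = 9.78e-04) and S+P C7 vs Sensitized (-0.57 ± 0.15, adjusted p = 8.62e-04, DESeq2), on the log2 scale. The last was -0.35 and no longer passed (adjusted p = 0.14) without Sensitized replicates 3 and 4. Its group means ran from 631 ± 115 (SD, n = 4) in S+P C7 to 1190.0 ± 186 (SD, n = 3) in N+P C1. Cd28 +13 kb moved with it, from 1053 ± 152 (SD, n = 4) in S+P C7 to 1829.9 ± 125 (SD, n = 3) in N+P C5. Cd28 +30 kb was lower in S+P C7 (806 to 1155) than in S+P C5 (1318 to 1550.2), which did not overlap, with -0.54 ± 0.19 (adjusted p = 0.0637, DESeq2).

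The Cd28 promoter was the steadiest of the 12 peaks. Its normalized counts were 827, 728 and 918 in Naive, 761, 925 and 916 in N+P C1, and 815, 851 and 991 in N+P C5. They were 692, 759.5, 832 and 803 in Sensitized, 813, 817, 832 and 905 in S+P C4, 771, 712, 772 and 876 for S+P C5, and 754, 684, 825 and 889 in S+P C7. The libraries overlapped in every comparison of groups, and fitted fold changes lay between -0.17 and 0.13 over the 13 comparisons. Its coefficient of variation over 25 libraries was 9.56%, and 11.2% of all peaks varied less. That of Icos +72 kb was 74.2%, and 95.9% of all peaks varied less.

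Ctla4 +8 kb, just past the gene's end, was highest in S+P C5 (752 to 990.3) and lowest in S+P C4 (373 to 667). These 2 groups did not overlap, and the log2 fold change was 0.84 ± 0.20 (adjusted p = 9.74e-04, DESeq2), and it was called without replicate 1 (0.98) or 2 (0.93) of S+P C4 or replicate 4 of S+P C5 (0.92). Its value in S+P C5 vs Sensitized was 0.26 ± 0.20 (adjusted p = 0.329). At each of the 3 Ctla4 peaks, S+P C5 thus had a higher mean than S+P C4, with a call at +4 kb alone in the fit over all libraries.

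Levels of different peaks are compared per kb of peak length. The group mean of Ctla4 +4 kb ran from 140 in N+P C1 to 422 normalized counts per kb in S+P C5, where that of the Ctla4 promoter was 610. That of Icos +72 kb ran from 36.2 in N+P C1 to 652 in S+P C5, so that the order of the 12 peaks differed between groups.

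**Figure D4:**
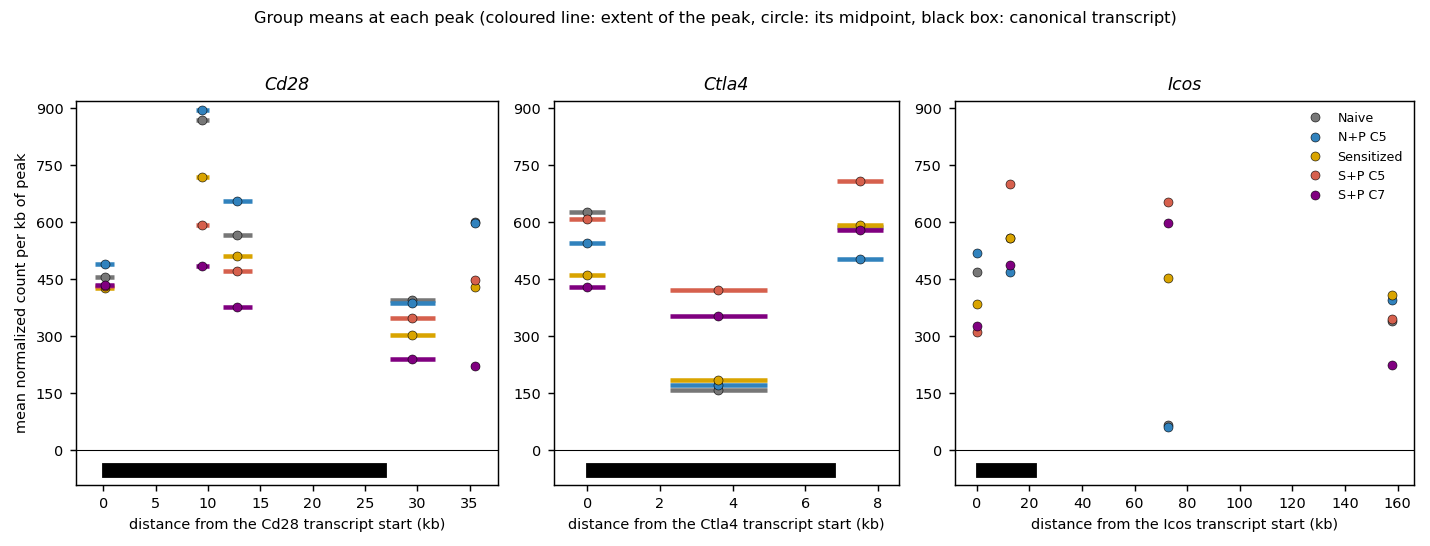
Mean normalized count per kb of peak (vertical axis) against distance from the canonical transcript start of each gene in kb, for 5 of the 7 groups, with the extent of each peak as a line. At Icos +72 kb the Naive and N+P C5 means are 66.7 and 60.9 and those of Sensitized 453, of S+P C5 652 and of S+P C7 598, while at Ctla4 +4 kb S+P C5 and S+P C7 stand apart from the other 3 groups.

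The study pooled the libraries of each group into a list of reproducible peaks before it merged the 7 lists. Ctla4 +4 kb and Icos +72 kb were each overlapped by a peak in 2 of the 7 lists, those of S+P C5 and S+P C7, although reads of Sensitized (114 to 407) and S+P C4 libraries (149.7 to 304) also fell on Icos +72 kb. The S+P C5 list peak covered 100% of Ctla4 +4 kb, but that of S+P C7 covered 26.2%, with a deposited q-value of 0.968. Icos +158 kb was in the N+P C1 list alone. The lists held 10 member peaks in N+P C1 (62.9% of all merged peaks), 9 in S+P C5 (82.9%), 9 in S+P C7 (64.0%), 9 in Sensitized (71.1%), 8 in Naive (62.6%), 7 in N+P C5 (62.2%) but 1 for S+P C4 (27.0%). No member peak had a deposited q-value under 0.05 in any list, beside 4.37% to 12.4% of all merged peaks, so nothing is read from this about the locus.

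Across the 25 libraries, the 4 Cd28 peaks other than the promoter varied together. Pearson's r of log2(normalized count + 1) was 0.828 to 0.945 over their pairs, while between the Cd28 promoter and the other 4 it was 0.218 to 0.382. Across genes it was highest, at 0.856, between Cd28 +30 kb and the Ctla4 promoter, 0.849 between Ctla4 +8 kb and Icos +13 kb, and lowest, at -0.843, between Icos +72 kb and Cd28 +9 kb. These are descriptions over libraries that share groups and may in part share animals. Of all peaks outside the locus, those most like Ctla4 +4 kb were an intronic peak of Ikzf2 (r = 0.946), a distal peak nearest to Ptpn13 (r = 0.945) and a peak in an intron of Slc12a8 nearest to Heg1 (r = 0.943). The peaks most like the Ctla4 promoter were an intronic Sesn3 peak (r = 0.913), a peak in Tspan14 nearest to Sh2d4b (r = 0.90) and a peak in Mogat1 nearest to BC035947 (r = 0.895). For the Icos promoter they were a distal Dusp6 peak, the Themis promoter and a peak in Tshr nearest to Gtf2a1 (r = 0.906 each), and for the Cd28 promoter the promoters of Orc2 (r = 0.778), Eif2s3x (r = 0.772) and Samd9l (r = 0.772).

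Genes that carry or oppose the signals of these receptors were described by a list of 40 genes, of which 35 had peaks, 129 in all. In Sensitized vs Naive 10 of these peaks opened and 1 closed, which is 7.75% and 0.775%, beside 7.22% and 1.40% of all peaks. In S+P C5 vs Sensitized 6 opened (4.65%, beside 3.08% of all peaks) and 3 closed (2.33%, beside 3.67%). For S+P C5 vs N+P C5 17 opened (13.2%, beside 10.3%) and 8 closed (6.20%, beside 6.97%). The median log2 fold change of the 129 peaks was -0.02 in Sensitized vs Naive and -0.02 in S+P C5 vs Sensitized, beside -0.01 over all peaks in each. The list as a whole thus lay near the background.

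The branches are described for S+P C5 vs N+P C5, in which 10.3% of all peaks opened and 6.97% closed. Of the 47 peaks of proximal kinases and adaptors, 5 opened (10.6%) and 4 closed (8.51%). Of the 22 peaks of the PI3-kinase branch, 3 opened (13.6%) and 0 closed, with 8 at an unadjusted p under 0.05 beside 61.6% of all peaks (DESeq2). Of the 28 peaks of inhibitory and trafficking genes, 5 opened (17.9%) and 3 closed (10.7%), and of the 13 peaks of target genes 3 opened (23.1%) and 1 closed (7.69%). None of the 14 peaks of NF-kB genes was called, with 4 at an unadjusted p under 0.05. Among 5 ligand genes, 3 had peaks, and 1 of their 5 peaks opened. It lay in an intron of Pdcd1lg2, which encodes a ligand of PD1, but nearest to the start of Ric1, 55221 bp away. With so few peaks a branch, these shares were not tested against the background.

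The peaks named next had the lowest adjusted p among the list's genes. An intronic peak of Ptpn11, which encodes the phosphatase SHP-2 that acts below inhibitory receptors, had a mean of 12 ± 2.26 normalized counts (SD, n = 3) in Naive, 119.7 ± 79.4 (SD, n = 4) in Sensitized and 486 ± 73.7 (SD, n = 4) in S+P C5. The Ptpn11 log2 fold change in S+P C5 vs Sensitized was 2.02 ± 0.34 (adjusted p = 1.90e-07, DESeq2). An intronic peak of Cblb, a ubiquitin ligase that raises the need for CD28 signals, opened in Sensitized vs Naive by 1.80 ± 0.35 (adjusted p = 5.19e-06, DESeq2) and for S+P C5 vs N+P C5 by 2.47 ± 0.35 (adjusted p = 6.41e-11). Other Cblb peaks moved in both directions. In Sensitized vs Naive a second intronic Cblb peak opened (1.70) and a distal one closed (-0.97), and for S+P C5 vs N+P C5 the second intronic peak opened again and 3 distal ones closed (-1.44, -1.07 and -1.68).

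An intronic peak of the Src-family kinase gene Fyn opened in S+P C5 vs Sensitized by 1.59 ± 0.28 (adjusted p = 9.00e-07), and a distal peak of Prkcq, the kinase that links CD28 to NF-kB, closed by -1.04 ± 0.22 (adjusted p = 6.10e-05, DESeq2). A peak in an intron of Bcl2l1, the survival gene that CD28 induces, lay nearest to the start of Cox4i2 and opened in Sensitized vs Naive by 3.08 ± 0.53 (adjusted p = 2.65e-07, DESeq2). A distal peak of the transcription factor gene Maf opened in Sensitized vs Naive by 3.05 ± 0.49 (adjusted p = 1.97e-08) and in S+P C5 vs Sensitized by 1.53 ± 0.40 (adjusted p = 0.00203, DESeq2). The list's members moved in both directions within the same cells.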

How the data were processed

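Chromatin accessibility was profiled by ATAC-seq in 25 libraries. The authors trimmed reads with Cutadapt (3.4), aligned them to GRCm39 with Bowtie2 (2.2.9), removed reads without a unique position and duplicates (Picard 2.21.8), called peaks per library with Genrich (0.6.1) in its ATAC mode, kept peaks that recurred within a group with ChIP-R and merged the 7 group lists with bedtools (2.27.1). The deposited count table gives raw counts of reads per merged peak and library, with no normalization. The deposited peak lists hold a ChIP-R score and a p-value and q-value per peak, pooled over the libraries of a group. The same peak limits hold for every library.

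Normalized counts are raw counts divided by median-of-ratios size factors. 1 fit over all libraries with group as the only term was made with DESeq2 1.42.0 (R 4.3.3, Wald test, Benjamini-Hochberg adjustment over the peaks kept by its filter on low counts, which were all 13527 except for N+P C1 (4873 peaks) or N+P C5 (3824 peaks) against Naive, fold changes not shrunken), with calls by the thresholds of the study's methods, an adjusted p below 0.1 and more than 0.9 in either direction on the log2 scale. Alternatives used edgeR 4.0.16 and limma 3.58.1, other scalings and filters, and left out libraries. A log2 value of counts used a pseudocount of 1. Promoter peaks had their midpoint within 1000 bp of a transcript start. Coordinates are 1-based. Sequences were read from GRCm39, and that of 1 member peak is not reported here. Member peaks, gene lists, the rule for named peaks (all member peaks, with every library printed for called and promoter peaks; the 3 most alike peaks; up to 4 list genes a comparison with the lowest adjusted p) and the tests were chosen with earlier results of these data known. The within-library ratios were added after the counts were seen. Subsets of N+P or S+P share a number in the table's column names, which was taken as the pairing; no source names the animals. Their deviations from the group means correlated with r of 0.108 to 0.400 (N+P C5 and C1), 0.103 to 0.572 (S+P C5 and C4), 0.0639 to 0.666 (S+P C7 and C4) and 0.522 to 0.771 (S+P C7 and C5). All pairs of libraries within a group differed by more than sampling noise (lowest chi-square per degree of freedom 2.81). Depth in peaks was 2430890 to 25419715 counts per library, which limits the peaks with few reads most.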

Additional observations from a re-analysis of the deposited data

Results flagged for a closer look

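Cd28 +30 kb in S+P C5 replicate 1 had a normalized count of 1318, while the other 3 S+P C5 libraries lay between 1520.3 and 1550.2. The gap to the nearest of them was 0.871 of the group's range, above Dixon's limit of 0.829 for 4 samples. It is 1 of 48 groups of 4 libraries examined at the 12 peaks, and chance marks about 1 in 20.

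At Ctla4 +4 kb the difference between C5 cells of pregnant mice and cells of non-pregnant mice was larger in sensitized than in naive mice by 1.06 on the log2 scale (adjusted p = 0.0199, DESeq2 interaction), with 1.18 in S+P C5 vs Sensitized and 0.12 in N+P C5 vs Naive. Pregnancy and the PD1 and CD73 gate cannot be told apart in either. The peak entered the merged peaks only through the lists of S+P C5 and S+P C7, so the difference is not independent of how it was selected. The difference was called in all 23 alternatives run for it, at 0.93 without Sensitized replicate 1 to 1.40 without Sensitized replicates 3 and 4.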

How the results depend on the processing

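Of the 12 calls, 7 held in every alternative and 5 were lost in at least 1, none with a change of sign. Of 144 uncalled values, 5 were called in some alternative. Counts of member peaks called stayed within 1.5 times in 236 of 270 recomputations. Without a fold threshold the counts were 1 in S+P C4 vs Sensitized, 2 in S+P C5 vs Sensitized, 5 in S+P C7 vs Sensitized, 7 in S+P C4 vs N+P C1, 7 for S+P C5 vs N+P C5, 3 in S+P C5 vs S+P C4, 3 in S+P C7 vs S+P C4, 4 in S+P C7 vs S+P C5 and 2 in the interaction. With the fold threshold and without Sensitized replicates 3 and 4 they were 2 in Sensitized vs Naive (15.2% of all peaks) and 1 in S+P C7 vs Sensitized (6.96%). In S+P C4 vs N+P C1 the count was 1 with TMM size factors, 1 with total counts and 1 with the replicate block, in which the mice share only a number, and the call lost was Cd28 +35 kb. The block changed no other count of calls. Without a fold threshold, an addition made after seeing the data, the block gave 6 in S+P C5 vs S+P C4, 4 in S+P C7 vs S+P C4 and 8 in S+P C7 vs S+P C5, and leaving out Sensitized replicates 3 and 4 gave 6 in Sensitized vs Naive and 3 in S+P C5 vs Sensitized. The cause was not tested.

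Leaving out 1 library at a time gave 1 to 2 calls in S+P C7 vs Sensitized, 1 to 2 in S+P C4 vs N+P C1, 1 to 3 in S+P C5 vs S+P C4, 0 to 1 in S+P C7 vs S+P C4, 0 to 1 in S+P C7 vs S+P C5 and 1 to 2 in the interaction. The call lost in S+P C7 vs S+P C4 was Ctla4 +4 kb and that in S+P C7 vs S+P C5 was Cd28 +35 kb. Depth limits Icos +72 kb most, with 11 raw reads in the library with the fewest.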

Other observations

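Within 500 kb of the member peaks only 2 other peaks were present. The promoter peak of Cyp20a1 was not called in any comparison. A peak (chr1:60455785-60456401) in the bodies of both Raph1 and Abi2, nearest to the start of Abi2, an actin regulator, closed in S+P C7 vs Sensitized by -1.44 ± 0.31 on the log2 scale (adjusted p = 3.23e-05, DESeq2). It also closed in S+P C7 vs S+P C4 (-1.02 ± 0.31, adjusted p = 0.0106), in S+P C4 vs N+P C1 (-1.11 ± 0.33, adjusted p = 0.00394) and for S+P C5 vs N+P C5 (-1.20 ± 0.33, adjusted p = 9.69e-04).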
